A study of Mus musculus with 8 samples.

Results

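Expression of 8 adhesion genes of epithelium was followed in mouse embryonic stem (ES) cells whose genomes came from the father alone, the mother alone or both parents. The genes were the cadherins Cdh1, Cdh2 and Cdh3, the claudins Cldn4, Cldn6 and Cldn7, and the membrane proteins Epcam and Pecam1. They were taken by name from a probe annotation, with every probe it lists for each gene. This annotation holds only probes in the authors' table of log2 values, which has 12891 of the 25697 probes. The annotation lists 9 probes for 6 of them. Cdh2 and Epcam have no named probe in it and are not analysed here. Whether the array carries probes for them could not be told. A total of 8 probes, at least 1 for each of the 6 genes, passed a filter requiring a detection p-value under 0.01 on at least 2 of 8 arrays. The filter kept 12300 of 25697 probes and 8221 named genes in all.

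Androgenetic ES cells, with paternal genomes only, and fertilized ES cells, with a genome from each parent, are labelled as female and male and as containing X and Y chromosomes, and parthenogenetic ES cells, with maternal genomes only, as female. All lines are of the B6129F1 strain and were derived from blastocysts. Total RNA was read on single-colour Illumina BeadChips. Androgenetic and fertilized cells were each read on 3 arrays, 1 for each of passages 6, 7 and 8, and parthenogenetic cells on 2, for passages 6 and 7. Arrays of a group are repeats over successive passages and are not stated to be separate lines, so the tests below capture variation among passages. Feeder cells are not mentioned. In RNA from whole cultures, fewer cells of a type and less RNA per cell cannot be told apart.

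ES cells are held together as compact colonies. E-cadherin, the product of Cdh1, joins neighbouring cells through homophilic contacts and is anchored to actin by catenins in adherens junctions. Claudins are multi-pass membrane proteins that form the strands of tight junctions, which seal the space between epithelial cells, and EpCAM binds claudin-7 at the cell membrane. PECAM1 is an immunoglobulin superfamily adhesion molecule known from endothelium, platelets and leukocytes, and its presence on the surface is used as a mark of undifferentiated mouse ES cells. Cadherin and claudin genes are also targets of Snail and Zeb repressors, which bind E-box sequences during epithelial-mesenchymal transition.

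Between 41.3% and 43.5% of probes were detected per array. Brightness before normalization followed the groups in part, with median signals of 154 to 167 on androgenetic, 133 to 145 on fertilized and 127 and 153 on parthenogenetic arrays, and its part in the results beyond the scaling alternatives was not tested. The ES cell markers Pou5f1, Sox2 and Nanog were detected on all 8 arrays. Androgenetic cells had less signal than fertilized cells for all 13 measured ES cell markers (median log2 fold change -2.50), and their summed signal was 33900 to 37400 on androgenetic, 109000 to 113000 on fertilized and 129000 to 131000 on parthenogenetic arrays. Expression is given below as log2 normalized signal, and differences are log2 fold changes with their SE. Adjusted p-values are from limma over all 12300 kept probes with a threshold of 0.05. The share of all genes whose arrays do not overlap between groups was not counted. Statements that arrays do not overlap therefore only describe the values.

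Against fertilized cells, androgenetic cells had more Cdh1, Cldn4 and Cldn6, less Cdh3, and Pecam1 below detection, while Cldn7 did not pass the test. The background was high. Among all 8221 genes 35.4% were called higher, 39.3% lower and 74.7% either way, so 3 of 6 genes higher and 2 of 6 lower is near the share of all genes. The balance of all genes depended on the scaling, with 2908 higher and 3232 lower after quantile normalization and 3389 higher and 2685 lower with each array scaled to its median. At 2-fold or more, Cldn6 was higher and Pecam1 lower, beside 13.2% and 15.0% of all genes, or 28.2% either way. The median of the 6 differences was 0.41, against -0.05 for all genes.

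Cdh1 was measured by 1 probe. Its log2 signals were 12.52, 12.58 and 12.53 in androgenetic cells, 12.12 and 11.82 in parthenogenetic cells and 11.95, 11.86 and 12.18 in fertilized cells. All 3 androgenetic arrays lay above the other 5, which overlapped each other. Cdh1 was 1.46-fold higher in androgenetic than in fertilized cells (log2 fold change 0.55 ± 0.11 SE, adjusted p = 0.00153) and 1.49-fold higher than in parthenogenetic cells (0.57 ± 0.12, adjusted p = 0.00237). Parthenogenetic and fertilized cells were not separated, with a difference of -0.03 and a 95% interval from -0.30 to 0.25 (adjusted p = 0.871). The sign of that difference changed with the arrays used, from -0.18 without the parthenogenetic passage 6 array to 0.12 without the passage 7 array.

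Cdh3 encodes P-cadherin, a close relative of E-cadherin known from placenta and basal epithelium. It was highest in fertilized cells. The brighter of its probes gave 9.16, 9.14 and 9.21 in androgenetic cells, 8.85 and 8.83 in parthenogenetic cells and 9.54, 9.69 and 9.62 in fertilized cells, with no overlap between any groups. The androgenetic level was 1.36-fold lower than the fertilized one (-0.45 ± 0.071, adjusted p = 0.00041) and the parthenogenetic level 1.71-fold lower (-0.78 ± 0.079, adjusted p = 0.000146). Androgenetic cells exceeded parthenogenetic cells by 0.33 ± 0.079 on this probe (adjusted p = 0.00502). A dimmer probe also fell in both comparisons with fertilized cells, by 0.63 ± 0.12 and by 0.45 ± 0.14 (adjusted p = 0.00139 and 0.0299). It did not separate androgenetic from parthenogenetic cells, at -0.18 with an interval from -0.49 to 0.13 (adjusted p = 0.264). With the mean of both probes that difference was 0.076 (adjusted p = 0.513). The order of the lower groups is therefore not settled. Another Cdh3 probe was above background on 1 of 8 arrays, did not pass the filter and was not tested.

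**Figure D1:**
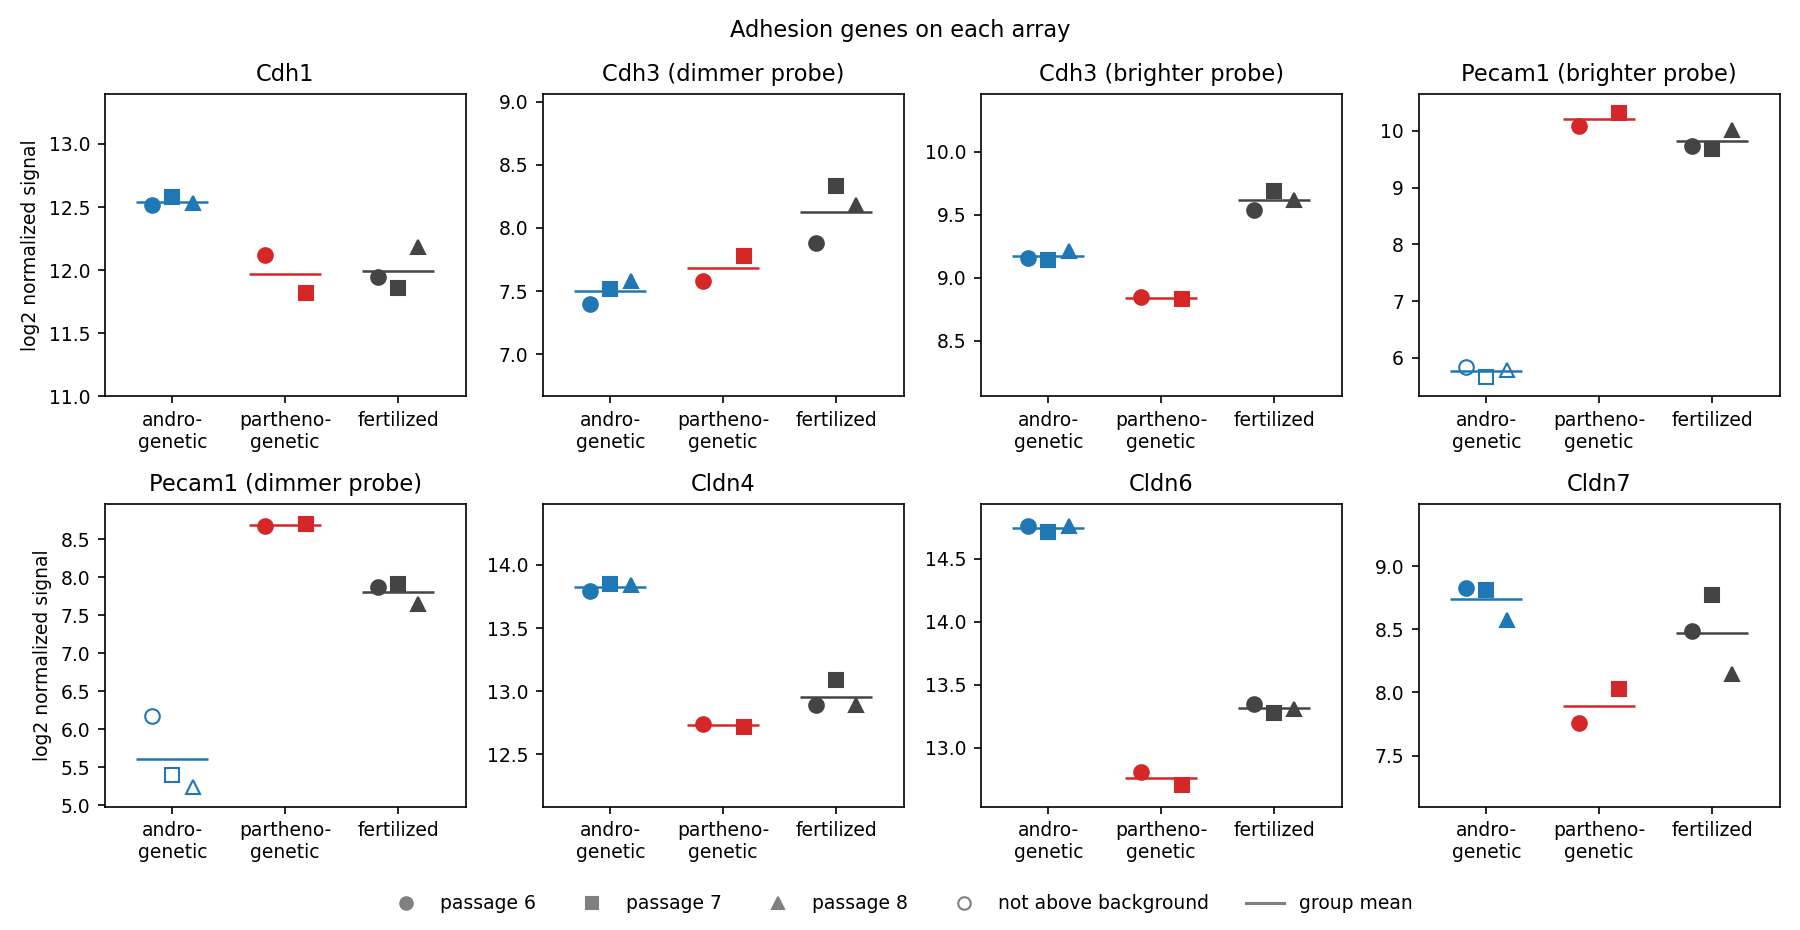
Log2 normalized signal of the 8 kept probes of 6 adhesion genes on each array, by kind of ES cell, with 1 symbol per passage, a line at each group mean and open symbols where the detection p-value was 0.01 or more. Cldn6 and Cldn4 are highest on the 3 androgenetic arrays, on which neither Pecam1 probe is above background; each panel has its own range, at least 2.4 log2 units wide.

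Cldn6 encodes a claudin of embryonic epithelium and pluripotent cells. It had the largest increase of the 6 genes in androgenetic cells. Its log2 signals were 14.76, 14.71 and 14.76 there, 12.81 and 12.71 in parthenogenetic cells and 13.35, 13.28 and 13.31 in fertilized cells. The 3 groups did not overlap, and each neighbouring pair in the order androgenetic, fertilized, parthenogenetic differed beyond its spread. Androgenetic cells held 2.70-fold more Cldn6 signal than fertilized cells (1.43 ± 0.068, adjusted p = 1.96e-07), and 6.84% of all genes had a higher fold change. Parthenogenetic cells held 1.47-fold less than fertilized cells (-0.56 ± 0.077, adjusted p = 0.000672). The androgenetic level was 3.96-fold the parthenogenetic one (1.99 ± 0.077, adjusted p = 7.77e-08). On the linear scale before normalization, signals were 30210 to 31093 on androgenetic arrays, 9009 to 10023 on fertilized arrays and 5109 to 7143 on parthenogenetic arrays.

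Cldn4, a claudin of tight epithelia that also serves as a receptor for a clostridial toxin, followed the same order less steeply. Log2 signals were 13.79, 13.85 and 13.84 in androgenetic cells, 12.74 and 12.72 in parthenogenetic cells and 12.89, 13.09 and 12.89 in fertilized cells. The androgenetic arrays stood clear of the rest. Cldn4 was 1.82-fold higher in androgenetic than in fertilized cells (0.87 ± 0.079, adjusted p = 1.11e-05) and 2.13-fold higher than in parthenogenetic cells (1.09 ± 0.088, adjusted p = 6.13e-06). The parthenogenetic arrays lay just under the fertilized ones, but the difference of -0.23 ± 0.088 did not pass (adjusted p = 0.0728).

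Cldn7, the claudin that associates with EpCAM, was dimmer and more variable. It gave 8.83, 8.81 and 8.57 in androgenetic cells, 7.76 and 8.03 in parthenogenetic cells and 8.49, 8.77 and 8.15 in fertilized cells. Androgenetic and fertilized arrays overlapped, and the difference of 0.26, with an interval from -0.10 to 0.63, did not pass (adjusted p = 0.162). It passed without the fertilized passage 7 array (0.41, adjusted p = 0.0271) and with each array scaled to its median (0.47, adjusted p = 0.00833). It also passed, narrowly, with replicate number, which follows passage, as a block (0.26, adjusted p = 0.0491). Without the fertilized passage 8 array the difference was 0.10 (adjusted p = 0.494). Cldn7 was 1.79-fold higher in androgenetic than in parthenogenetic cells (0.84 ± 0.18, adjusted p = 0.00252).

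The 3 claudins, which share this order of group means, are shown by the 250 bases before their start sites in RefSeq (GRCm38.p6). Cldn4 lies on the minus strand (chr5:134946935-134947184), and Cldn6 (chr17:23679115-23679364) and the downstream of the Cldn7 starts (chr11:69965171-69965420) on the plus strand. Sequences run 5′ to 3′ along the gene, and capitals mark the E-box CAGGTG and the GC box GGGCGG, searched on both strands and so also as CACCTG and CCGCCC.
Cldn4: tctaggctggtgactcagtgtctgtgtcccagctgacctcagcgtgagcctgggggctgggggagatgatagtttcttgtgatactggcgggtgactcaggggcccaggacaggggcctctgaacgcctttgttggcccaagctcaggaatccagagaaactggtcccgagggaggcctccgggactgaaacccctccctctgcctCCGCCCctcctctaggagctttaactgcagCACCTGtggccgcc
Cldn6: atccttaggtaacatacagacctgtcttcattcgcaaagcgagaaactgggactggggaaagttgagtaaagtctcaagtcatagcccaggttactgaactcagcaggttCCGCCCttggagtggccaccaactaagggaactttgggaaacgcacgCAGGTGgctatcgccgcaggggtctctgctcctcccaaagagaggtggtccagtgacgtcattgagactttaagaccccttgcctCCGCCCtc
Cldn7: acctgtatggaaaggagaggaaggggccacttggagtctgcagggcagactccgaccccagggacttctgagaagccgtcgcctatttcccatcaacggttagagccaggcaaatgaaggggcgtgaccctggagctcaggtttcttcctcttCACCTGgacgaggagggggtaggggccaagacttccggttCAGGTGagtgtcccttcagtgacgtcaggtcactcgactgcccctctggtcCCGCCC
An E-box begins 14 bases before the start of Cldn4 and 93 bases before that of Cldn6, and 2 begin 97 and 57 bases before that of Cldn7. Of 32851 promoter windows of this length 17.2% hold an E-box and 32.7% a GC box, and no capitals overlap. The window of the upstream Cldn7 start holds neither motif. CCAAT, found in 33.8% of all windows, and AACCGGTT, found in 0.116%, do not occur in these letters. Of the 8 genes, 4 have a promoter window in the table used, the fourth being Epcam. These matches describe sequence, and binding was not measured.

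Pecam1 was the gene with the widest span between groups. Its brighter probe gave 5.84, 5.67 and 5.79 in androgenetic cells, none of them above background, 10.09 and 10.31 in parthenogenetic cells and 9.74, 9.68 and 10.02 in fertilized cells. The dimmer probe gave 6.17, 5.40 and 5.24, then 8.68 and 8.71, then 7.88, 7.91 and 7.65 in the same groups, and again no androgenetic array detected it. Both probes thus placed androgenetic cells far below the others. Since the androgenetic level is only bounded, Pecam1 was at least 11.5-fold lower there than in parthenogenetic cells on the brighter probe (adjusted p = 1.56e-08) and at least 4.05-fold lower on the dimmer one (adjusted p = 4.55e-06). It was also at least 8.79-fold lower than in fertilized cells on the brighter probe and at least 2.20-fold lower on the dimmer one (adjusted p = 9.14e-09 and 1.62e-05).

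In parthenogenetic cells Pecam1 was higher than in fertilized cells on both probes. The brighter probe rose by 0.39 ± 0.12 (1.31-fold, adjusted p = 0.0368) and the dimmer one by 0.88 ± 0.24 (1.84-fold, adjusted p = 0.0184). Parthenogenetic and fertilized arrays did not overlap on either, which with so few arrays is a weak separation. The call of the brighter probe was narrow and was lost on leaving out any 1 array other than the fertilized passage 8 array. Without each of these arrays its adjusted p was 0.0555, 0.0522 and 0.0590 (androgenetic passages 6, 7 and 8), 0.0513 and 0.232 (parthenogenetic passages 6 and 7) and 0.0960 and 0.0730 (fertilized passages 6 and 7).

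Against fertilized cells, parthenogenetic cells thus had more Pecam1 and less Cdh3, Cldn6 and Cldn7. This is 1 of 6 genes higher and 3 lower, beside 20.3% of all genes higher, 20.3% lower and 40.6% either way. None of the 6 reached 2-fold, beside 3.27% of all genes higher, 2.24% lower and 5.51% either way. Cldn7 was 1.49-fold lower (-0.57 ± 0.18, adjusted p = 0.0320), with both parthenogenetic arrays below all fertilized ones. That call was lost without either parthenogenetic array (adjusted p = 0.195 without passage 6 and 0.0555 without passage 7) and without the fertilized passage 6 or 7 array (0.0754 and 0.0559). Cldn4 gained a call without the fertilized passage 8 array (-0.26, adjusted p = 0.0492).

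The direct comparison of both uniparental kinds called all 6 genes by their brightest probes. Cdh1, Cldn4, Cldn6 and Cldn7 were higher in androgenetic cells and Pecam1 was lower, while Cdh3 was higher on its brighter probe alone. This is 5 of 6 genes higher and 1 lower, beside 34.0% of all genes higher, 37.1% lower and 71.1% either way. At 2-fold or more, Cldn4 and Cldn6 were higher and Pecam1 lower, beside 12.7%, 14.6% and, for both directions, 27.3% of all genes. Differences of the 5 higher genes ran from 0.33 for the brighter Cdh3 probe to 1.99 for Cldn6. All 3 comparisons share arrays, so their values are not independent of one another. With arrays scaled to a common median in place of quantile normalization, the median of all genes in this comparison moved from -0.03 to 0.15 and the share of higher genes among those called from 47.8% to 59.6%. The 6 genes kept their directions under that scaling, Cdh3 at 0.54 and Cldn6 at 2.13.

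**Figure D2:**
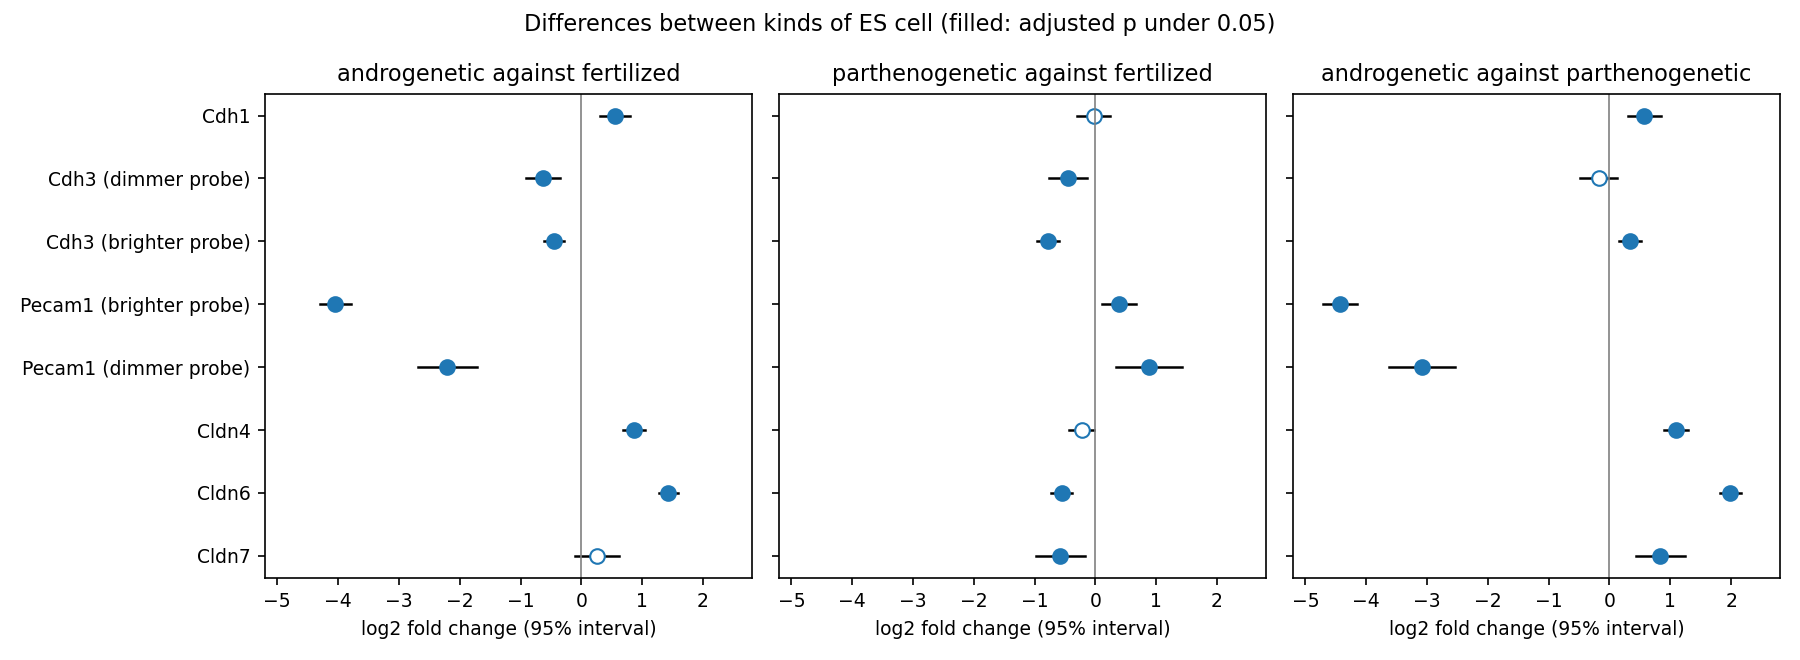
Log2 fold change of each kept probe in the 3 comparisons, with 95% intervals from the limma fit and filled points where the adjusted p was under 0.05. Cldn6 moves by 1.43 in androgenetic and -0.56 in parthenogenetic cells against fertilized cells; the Pecam1 values in androgenetic cells are fitted to signals at background and are not bounds.

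Other genes of the junctions were described from lists, with a second median where genes not detected in a group enter at their bound. In these and the marker lists, Zeb2, Cd44, Cd82, Cgnl1, Esrp2, Eomes and Nefm were above background on androgenetic arrays alone. They passed the filter only through those arrays, so each could enter only as higher there. Ovol1 passed only through fertilized arrays and Robo4 only through parthenogenetic arrays, and the same limit holds for them. All counts in androgenetic against fertilized cells stand beside 35.4% of all genes called higher and 39.3% lower. Only part of each list had a kept probe. This was 6 of 12 listed adherens junction partners, 13 of 18 tight junction proteins and 4 of 11 desmosome proteins. It was 10 of 13 EpCAM partners and proteases, 2 of 16 other claudins and 1 of 12 other cadherins. Of the regulators, 11 of 12 epithelial ones and 6 of 9 E-box repressors were measured. In androgenetic against fertilized cells, 3 of 6 measured partners of cadherins at adherens junctions rose and 1 fell (median 0.36, against -0.05 for all genes). Vcl, the actin-binding protein vinculin, was 3.09-fold higher (1.63 ± 0.12, adjusted p = 2.89e-06), and Ctnna1, the alpha-catenin that links E-cadherin to actin, 1.42-fold higher (0.50 ± 0.095, adjusted p = 0.00122). All 4 measured desmosome genes rose (median 1.04), led by Ppl, a plakin of the cornified envelope, at 10.3-fold, and the desmosomal cadherin Dsg2 at 2.69-fold. Of 10 genes for partners of EpCAM and proteases that act on it, 9 rose and 0 fell at an adjusted p under 0.05 (median 0.58, with bounds 0.54). Fhl2, a partner of the cleaved EpCAM tail, was 4.32-fold higher and the hyaluronan receptor Cd44 at least 2.22-fold higher.

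Tight junction proteins were divided. Among 13 measured genes 6 rose and 3 fell (median 0.26). Tjp3, the scaffold ZO-3, was 4.23-fold lower (-2.08 ± 0.13, adjusted p = 8.69e-07), while Cgnl1, which encodes paracingulin, was at least 2.42-fold higher and not detected in fertilized cells. Among the other claudins 2 were measured. Cldn12 was 1.95-fold higher (adjusted p = 1.16e-05) and Cldn3 1.23-fold lower (adjusted p = 0.0217). Cdh11, the only other cadherin of the list with a kept probe, did not pass (0.16 ± 0.26, adjusted p = 0.595).

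Most repressors of epithelial genes were higher in the same cells. Of 6 measured E-box repressors 5 rose and 1, Snai3, fell (median 0.90). Zeb2 was at least 4.95-fold higher, from below detection in fertilized cells, and Snai1 2.44-fold higher (1.29 ± 0.097, adjusted p = 3.13e-06). Of 11 listed mesenchymal genes 8 were measured, and all 8 rose (median 1.57). The intermediate filament gene Vim was 6.65-fold and the matrix protease gene Mmp14 5.64-fold higher. Regulators of epithelial identity were split 4 up and 6 down of 11 (median -0.35). Grhl3, a Grainyhead factor of surface ectoderm, was at least 2.42-fold higher, and Rab25, a trafficking protein of epithelia, 3.41-fold lower. Cdh1 itself, at 12.52 to 12.58 against 11.86 to 12.18, was higher on the same androgenetic arrays. The part of these repressors and regulators in the levels of the adhesion genes was not tested.

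**Figure D3:**
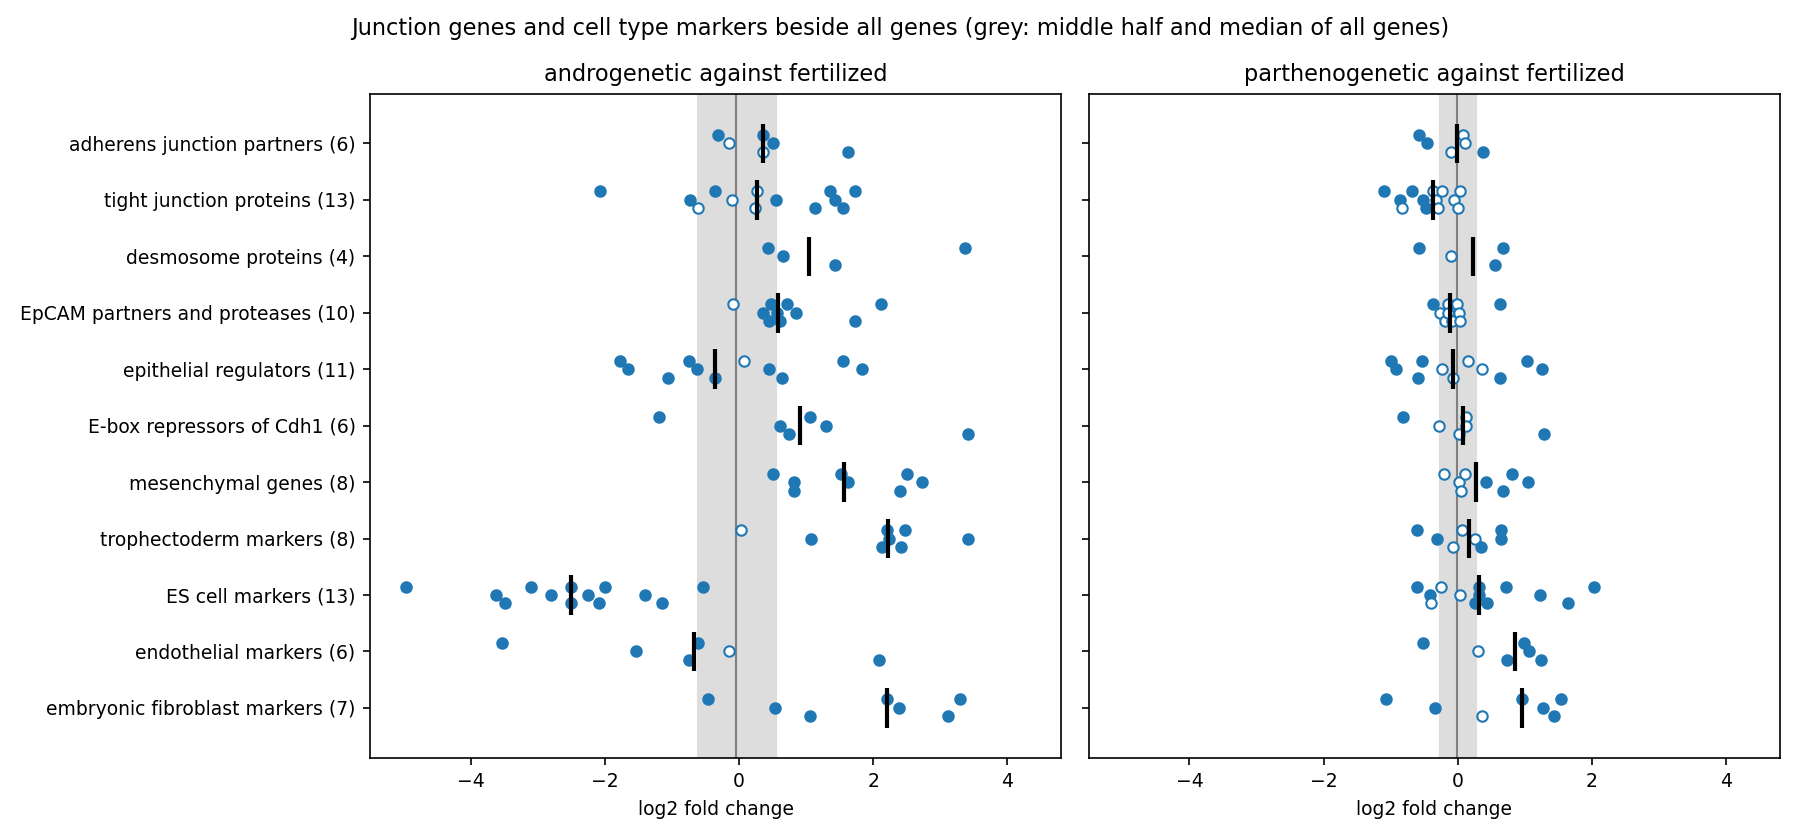
Log2 fold change of each measured gene of the junction and marker lists, against fertilized cells, with filled points at an adjusted p under 0.05, a black bar at each list's median, the number of genes in brackets and the range between the quartiles of all 8221 genes in grey (-0.61 to 0.55 for androgenetic and -0.27 to 0.27 for parthenogenetic cells). Trophectoderm and mesenchymal genes lie to the right and ES cell markers to the left in androgenetic cells; values are fitted ones, also for undetected genes.

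Markers of other cell types moved with these groups, but only part of each list was measured. This was 8 of 12 listed markers for trophectoderm, 7 of 21 for embryonic fibroblasts, 8 of 12 for primitive endoderm and 5 of 10 for neural cells. The trophectoderm markers Cdx2, Elf5, Esx1 and Hand1 had no kept named probe, and those measured include the keratins Krt7, Krt8, Krt18 and Krt19. Trophectoderm is an epithelium that expresses Cdh1 and claudins. Of its 8 measured markers, 7 rose in androgenetic cells and 0 fell (median 2.22). Eomes, above background on androgenetic arrays alone, was at least 4.94-fold higher. The summed signal of the 8 markers was 83500 to 89200 on androgenetic, 24400 on both parthenogenetic and 20900 to 23200 on fertilized arrays. Most of the androgenetic sum came from the keratins Krt8 and Krt18, at mean log2 signals of 15.68 and 14.45. Tfap2c did not pass (0.02, adjusted p = 0.81). Embryonic fibroblast markers rose in 6 of 7 cases and fell in 1 (median 2.20, with bounds 1.11), and summed to 6860 to 7120, 2690 to 2880 and 1680 to 1920 in the same order of groups. Primitive endoderm markers were split 4 up and 3 down of 8, and all 5 measured neural markers rose. The part of these cell types in the levels of the adhesion genes was not tested.

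Endothelial markers, 6 of 12 listed ones being measured, were examined beside Pecam1. In androgenetic cells 4 of 6 were called lower and 1 higher, with a median of -0.68 that became -0.58 once bounds replaced the fitted values of undetected genes. Vwf, the von Willebrand factor of endothelium, was at least 3.64-fold lower, and the VEGF receptor gene Flt1 4.24-fold higher. No androgenetic array detected Tek, Vwf, Robo4 or Esam, and no fertilized array detected Robo4 either, so its difference lies within background. In parthenogenetic against fertilized cells 4 of 6 were higher and 1 lower, beside 20.3% of all genes higher and 20.3% lower. The median was 0.86 (with bounds 0.61), with Tek 2.38-fold and Robo4 at least 1.40-fold higher. The summed signal of the 6 markers was 1940 to 2060 on androgenetic, 1700 to 1800 on parthenogenetic and 1180 to 1280 on fertilized arrays. Flt1 alone, at a mean log2 signal of 10.76, made up most of the androgenetic sum. Laptm5, the only blood cell marker with a kept probe, was 3.57-fold lower in androgenetic and 2.03-fold higher in parthenogenetic cells. The part of these markers' cell types in the Pecam1 signal was not tested.

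In parthenogenetic against fertilized cells, tight junction genes were called in 1 direction. The lists of adherens junctions, desmosomes and partners of EpCAM were called in both. All counts in this comparison stand beside 20.3% of all genes higher and 20.3% lower. Of 13 tight junction genes 5 fell and 0 rose at an adjusted p under 0.05 (median -0.37, with bounds -0.32, against -0.01 for all genes). Ocln, the strand protein occludin, was not detected there and at least 1.21-fold lower (adjusted p = 0.000405), and the polarity scaffold Patj was 1.82-fold lower. Cldn3, a claudin of simple epithelia, was 1.37-fold lower (adjusted p = 0.0108). At adherens junctions 1 of 6 genes rose and 2 fell, the nectin Nectin2 by 1.49-fold and Nectin3 by 1.38-fold. Desmosome genes were split 2 up and 1 down of 4, Dsg2 at 1.60-fold higher and the plaque protein gene Pkp2 lower by a log2 fold change of -0.58. Among E-box repressors 1 rose, Zeb1 at 2.43-fold, and 1 fell, Snai3 at 1.77-fold lower. Of 8 mesenchymal genes 4 rose and 0 fell, and Vim was 2.08-fold higher. Epithelial regulators were split 3 up and 4 down of 11, with Grhl3 at least 1.62-fold higher and the Krüppel-like factor gene Klf5 2.05-fold higher, and partners of EpCAM 1 up and 1 down of 10, the latter, Cd82, being undetected in both groups. Among markers of other cell types 4 of 7 fibroblast genes were higher and 2 lower, 3 of 8 trophectoderm genes higher (1 of them, Eomes, undetected in both groups) and 2 lower, 7 of 8 primitive endoderm genes lower, 4 of 5 neural genes higher, and 8 of 13 ES cell markers higher and 2 lower.

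Between the uniparental kinds, where 34.0% of all genes were higher and 37.1% lower, 8 of 13 tight junction genes were higher and 2 lower in androgenetic cells (median 0.88, with bounds 0.52, against -0.03 for all genes). Lsr, a protein of tricellular junctions, was 3.77-fold higher and Cgnl1 at least 2.53-fold higher. All 4 desmosome genes were higher again, Ppl at 7.01-fold and Pkp2 at 2.01-fold. Of 6 adherens junction partners 4 were higher and 1 lower, with Vcl at 2.87-fold and Nectin2 at 1.92-fold. Cldn12 was 1.83-fold higher and Cdh11 1.69-fold higher, the latter above background on 1 of 2 parthenogenetic arrays. Partners of EpCAM were higher in 8 of 10 cases, E-box repressors in 4 of 6 with 2 lower, mesenchymal genes in 7 of 8, and epithelial regulators in 4 of 11 with 5 lower, of which Ovol1 was undetected in both groups. Markers of other cell types moved here too. Trophectoderm markers were higher in 7 of 8 cases and lower in 1 (median 2.16), fibroblast markers higher in 6 of 7 and lower in 1, and neural markers higher in 3 of 5 and lower in 2. Primitive endoderm markers were higher in 5 of 8 cases and lower in 3. All 13 ES cell markers were lower (median -2.81), as were 5 of 6 endothelial markers, with 1 higher. Their part in the levels of the adhesion genes was not tested.

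The genes whose centred profile over the 8 arrays came nearest to each adhesion gene were found by root mean square difference on the log2 scale. For Cdh1 these were Tmem183a (0.049) and Cul3 (0.051), for Cdh3 Ccdc90b (0.048) and Kdsr (0.057), and for Cldn4 Zfp36 (0.040) and Yipf3 (0.052). Lzts2 (0.074) and Carhsp1 (0.076) came nearest to Cldn6 and Antxr1 (0.11) and Scand1 (0.12) to Cldn7. Lrrc34 (0.18) and Slc39a4 (0.19) came nearest to Pecam1, whose own profile had a root mean square of 2.0. None of these genes is in the junction lists, but those lists hold few of the 8221 genes, so no conclusion is drawn.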

How the data were processed

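RNA from 8 mouse ES cell samples was hybridised to single-colour Illumina BeadChips, 1 array each, and read with BeadStudio 3.1.3, per the submitters' processing notes. The authors deposited a linear intensity and a detection p-value per probe and array, with no scaling between arrays, and a table of log2 values for 12891 probes, which quantile normalization of log2 signals rebuilt to within 0.000742.

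Intensities were corrected and quantile normalized with neqc (limma 3.58.1, R 4.3.3; background from the detection p-values, offset 16) and filtered on detection p (under 0.01, 2 arrays or more). A linear model with 3 group means covered the 8 arrays and left 5 residual degrees of freedom, with moderated two-sided tests and Benjamini-Hochberg adjustment over kept probes. The procedure was tested on simulated data. The number of arrays limits precision. Folds against a group with no detected array are bounds set at the lowest detected signal. A gene stands for its brightest kept probe.

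Names came from the annotation, 12145 probes with 1 gene and 0 with several, updated by gene ID to RefSeq (12141 matched). The annotation holds only probes that are in the authors' table. Members and lists were chosen with earlier results of these data known. Named genes were all members, up to 2 genes per list and comparison with the largest change among those called without overlap of arrays, 3 ES cell markers, and the 2 nearest profiles per member. Undetected endothelial genes, and Snai3 in androgenetic cells, were named after their values were seen. The closing section gives the alternatives.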

Additional observations from a re-analysis of the deposited data

How the results depend on the processing

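Of 18 gene values, 13 kept their side of the threshold under every alternative run, which were no background correction, the authors' deposited values, other filters, median scaling, an offset of 50, only the groups compared, a replicate block, the mean over probes, and leaving out each array. Among these 13, Cdh1 in parthenogenetic against fertilized cells, not called in any, turned from -0.03 to 0.01 with the replicate block, 0.06 without the fertilized passage 8 array and 0.12 without the parthenogenetic passage 7 array. The 5 that changed side were Cldn7 in androgenetic against fertilized cells and Cdh3 between uniparental kinds, as given above, and 3 in parthenogenetic against fertilized cells. Beyond the arrays named above, Cldn4 there passed with no background correction (adjusted p = 0.0481) and with median scaling (0.0197), and Cldn7 did not pass with no filter (0.0592) or with only the groups compared (0.0709). Requiring detection on all 8 arrays removes Pecam1 by construction, so that 1 gene was lower in androgenetic against fertilized cells and 0 against parthenogenetic cells. In parthenogenetic against fertilized cells 0 genes were higher under that filter, with no filter, with median scaling and with only the groups compared (adjusted p of Pecam1 0.0604, 0.103 and 0.0895 in the last 3), and 0 to 1 when leaving out each array. Leaving out arrays gave 1071 to 1832 genes lower there, against 1669. A lone parthenogenetic array was assumed to vary like the other groups. Without background correction the Pecam1 difference between androgenetic and fertilized cells was -2.85 and with the authors' deposited values -2.79, against -4.05. With replicate number as a block Cldn7 passed narrowly in androgenetic against fertilized cells (adjusted p = 0.0491), and 2885 genes were higher and 3180 lower, against 2908 and 3232. Replicate number follows passage in every group, so this block is also a block by passage. The numbers were not taken as pairs in the main model. Residual correlations of same-numbered arrays over all kept probes lay between -0.090 and 0.067, and an effect of passage on single genes was not tested. Median scaling moved the median of all genes from -0.051 to 0.089 in androgenetic against fertilized cells. Pecam1 in androgenetic cells is limited by signal over background.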

Other observations

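Neighbours of the adhesion genes along the chromosome, taken from the order of RefSeq protein-coding genes after the members' values had been seen, shared their directions in some cases and not in others. Among all genes in androgenetic against fertilized cells, 35.4% were called higher and 39.3% lower. Cdh1 and Cdh3 lie side by side, and in that comparison Cdh1 was higher (0.55) and Cdh3 lower (-0.45). Zfp90, on the other side of Cdh3, did not pass (-0.05, adjusted p = 0.603). Cldn4 and Cldn3 are also adjacent. Cldn4 rose by 0.87 and Cldn3, the next gene, had a log2 fold change of -0.29 (adjusted p = 0.0217), and Mettl27 on the other side changed by -0.83 ± 0.12 (SE, adjusted p = 0.000197). Abhd11, the gene after Cldn3, changed by -1.14 ± 0.12 (adjusted p = 3.14e-05). Beside Cldn6, Tnfrsf12a, which encodes the receptor of the cytokine TWEAK, rose by 2.01 ± 0.11 (adjusted p = 4.38e-07) in androgenetic cells but did not pass in parthenogenetic cells (-0.18, adjusted p = 0.271), where Cldn6 fell. Near Cldn7, which did not pass in androgenetic against fertilized cells, genes went both ways there. Elp5 rose by 0.51 ± 0.072 (adjusted p = 0.000197) and Ctdnep1 by 1.08 ± 0.083 (adjusted p = 3.74e-06). Ybx2 was lower, at -3.3 ± 0.097 (adjusted p = 1.28e-08). Of the genes near Pecam1, which was below detection in androgenetic cells, Tex2 (-0.67 ± 0.094, adjusted p = 0.000184) and Polg2 (-1.20 ± 0.075, adjusted p = 9.8e-07) were lower there too. In parthenogenetic against fertilized cells Pecam1 was narrowly called higher. Polg2 was lower in that comparison (-0.56 ± 0.084, adjusted p = 0.00101) and Tex2 did not pass (-0.03, adjusted p = 0.843). Differences between neighbours were not tested. Adjusted p-values are from the limma fit over all kept probes.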
